A study of Mus musculus with 2 samples.

Results

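The genes described here are the CXC chemokine genes Cxcl1, Cxcl2, Cxcl3, Cxcl5, Ppbp and Pf4, chosen by name because of how some of them differed between the arrays of this series. They are 6 of 12418 genes whose probes were well above background on both arrays. The arrays held RNA from mouse bone marrow-derived macrophages (BMDMs), which are macrophages grown from marrow progenitors in culture. One culture was c-Maf+/-, with 1 working copy of the transcription factor gene Maf, and the other was c-Maf-/-, with none. Marrow of both genotypes grew for 5 days with M-CSF, supplied as CMG14-12 medium, and both cultures then received 100 ng/ml lipopolysaccharide (LPS), a bacterial product sensed by Toll-like receptor 4, for 5 h. The labels do not name the strain, the age or number of mice, the deleted part of Maf or the cells in which it was deleted, and neither an unstimulated culture nor a wild-type one was analysed here.

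CXC chemokines are small secreted proteins that steer leukocytes. Members with a glutamate-leucine-arginine (ELR) motif ahead of the first cysteines bind the receptor CXCR2 and draw neutrophils. In macrophages Cxcl1, Cxcl2 and Cxcl3 are known as fast, NF-kB-driven targets of LPS. Pf4 lacks that motif and is, like Ppbp, best known from platelet granules, so it shares the chromosomal cluster but is not known as a neutrophil attractant of the ELR type. The files place all 6 probes on the plus strand of chromosome 5 within 144104 bases (build mm9), in the order Cxcl5, Ppbp, Pf4, Cxcl3, Cxcl1, Cxcl2.

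Each genotype was hybridised to 1 one-colour array, so no test between genotypes exists and every difference belongs to these 2 arrays. Both Maf probes went with the labels, reading 15101 and 541 in the heterozygous culture against 12.6 and 5.96 in the knockout, where neither was well above background, differences of at least 636-fold and 22.8-fold. Log2 differences are given as c-Maf-/- minus c-Maf+/-, after each array was scaled to its 75th percentile. Of the 12418 genes, 1.43% were at least 2-fold higher in c-Maf-/- and 1.74% at least 2-fold lower, with a median log2 difference of -0.02. Counting both directions, 3.16% of genes were past 2-fold. All 11 macrophage markers examined were measured on both arrays, among them the M-CSF receptor gene Csf1r (-0.03) and Adgre1 (-0.40). Xist, the RNA of the inactive X chromosome, was detected in c-Maf+/- (115 and 263 at its 2 probes) but not in c-Maf-/- (6.25 and 5.43), while the Y-linked Ddx3y (log2 difference 0.50) and Eif2s3y (0.64) were detected on both arrays. The part of sex in the results was not tested.

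Cxcl1, Cxcl2, Cxcl3 and Cxcl5 each read at least 2-fold higher in macrophages without c-Maf. Ppbp was higher by less than 2-fold, and Pf4 hardly differed. No member was at least 2-fold lower. These differences were known when the genes were chosen, so the 4 of 6 past 2-fold describes the choice and is not evidence beside the 1.43% of all genes higher by as much, the 1.74% lower or the 3.16% either way. Each gene has 1 probe with 1 spot per array, all 12 spots were free of outlier and saturation flags, and the errors below are those of the scanner software's error model, which covers the reading of a spot and neither the culture nor the mouse.

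Cxcl1, the mouse counterpart of the human growth-regulated oncogene chemokines and a main neutrophil attractant, read 249 ± 25.4 intensity units on the heterozygous array against 1011 ± 101 on the knockout array. It was 3.98-fold higher, a log2 difference of 1.99 ± 0.21. The spot stood 15.0 times over its local background in c-Maf+/- and 59.4 times in c-Maf-/-, as mean pixel intensity over the background median. Its probe lies at chr5:91321845-91321904 (mm9).

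Cxcl2, also called MIP-2, is secreted early by LPS-treated macrophages and attracts neutrophils. Its probe (chr5:91334534-91334593) read 2527 ± 253 on the heterozygous array and 5654 ± 565 on the knockout array, 2.20-fold higher. The log2 difference of 1.14 ± 0.20 was thus the smallest among the 4 genes past 2-fold. Cxcl1 exceeded it by 0.86 ± 0.29 and Cxcl3 by 0.64 ± 0.29 on the log2 scale.

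Cxcl3, the third of the closely related growth-regulated chemokines, went from 1370 ± 137 in c-Maf+/- to 4770 ± 477 in c-Maf-/-, which was 3.42-fold higher (log2 difference 1.77 ± 0.20). Its probe is at chr5:91216694-91216753. The Cxcl3 and Cxcl1 differences lay within their errors of each other, at -0.22 ± 0.29 for Cxcl3 minus Cxcl1.

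Cxcl5, known as LIX in the mouse and made mainly by epithelial and stromal cells, had the largest difference of the 6. The heterozygous array read 52.9 ± 7.79 and the knockout array 233 ± 24.1, 4.33-fold higher (log2 difference 2.11 ± 0.26, probe at chr5:91190490-91190549). Its spot in c-Maf+/- averaged 91.1 intensity units per pixel over a local background of 22.0, so how the background is treated matters here. With normexp background correction, run with an offset of 50 intensity units added to every spot, the difference was 1.29. Without background subtraction it was 1.50. It remained past 2-fold in both.

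Ppbp encodes pro-platelet basic protein, which is cleaved to the neutrophil attractant NAP-2. The heterozygous array read 562 ± 56.5 and the knockout array 986 ± 98.8 (chr5:91198970-91199029), 1.72-fold higher with a log2 difference of 0.79 ± 0.20. The 2 arrays thus differed at Ppbp by more than the error of reading the spots, but by less than 2-fold in every setting tried, the largest value being 0.92 with spike-in scaling. Set against Cxcl2, the difference was smaller, at -0.35 ± 0.29 for Ppbp minus Cxcl2.

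Pf4, platelet factor 4, binds heparin and is also made by macrophages. Its probe (chr5:91202275-91202334) was bright in both genotypes, at 58067 ± 5807 on the heterozygous array and 56215 ± 5622 on the knockout array. The log2 difference of -0.07 ± 0.20 lay within its error, and its sign turned with quantile normalization (0.00) and spike-in scaling (0.06). Pf4 was unsaturated on both arrays.

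**Figure D1:**
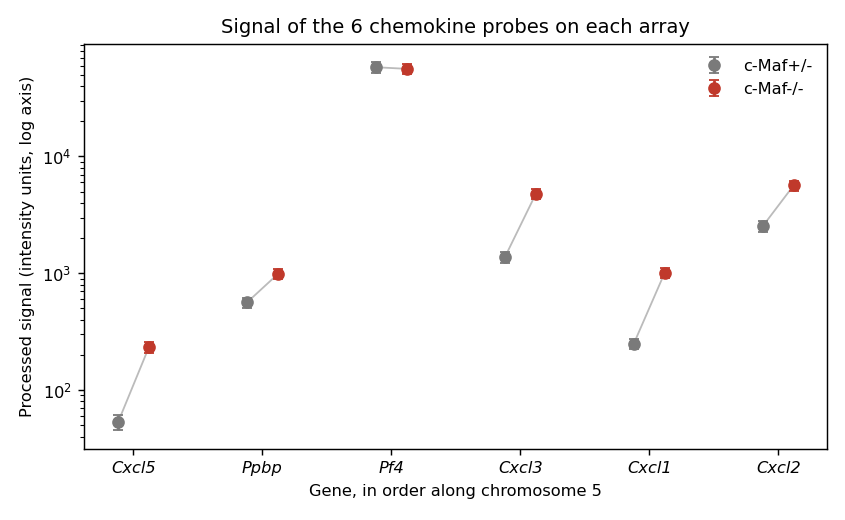
Processed signal (log axis) of each of the 6 chemokine probes on the c-Maf+/- array (grey) and the c-Maf-/- array (red), 1 spot each, with the scanner software's error as bars. Lines join the arrays: Cxcl5, Cxcl3, Cxcl1 and Cxcl2 climb by 2.20- to 4.33-fold, Ppbp by 1.72-fold, and Pf4 is level. Heights of different probes are not comparable.

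Among the 12418 genes ordered by difference, Cxcl5 stood at rank 12 from the top, Cxcl1 at 16, Cxcl3 at 28 and Cxcl2 at 118. Ppbp stood at rank 338 and Pf4 at 7269. The spots surrounding each member on the array, up to 5 rows and columns away, had medians between -0.05 and 0.05 over 39 to 55 detected spots. The spots around the higher chemokines were thus level between the arrays. With only 2 arrays a gene's pattern is 1 difference, and the genes of at least 2 probes that came nearest to the median of the 4 higher chemokines (1.88) were Irf2bp2 (1.63), Pla2g7 (1.54) and Zfp58 (1.53). The probes of Zfp58 shared a sign but not a size (SD 2.10 over 2 probes).

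**Figure D2:**
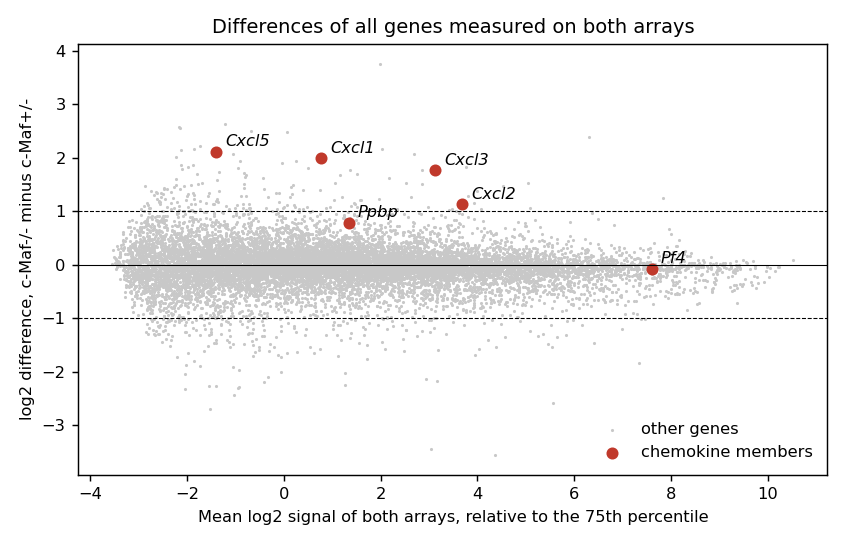
Log2 difference (vertical axis, c-Maf-/- minus c-Maf+/-) of each of 12418 genes against its mean log2 signal on both arrays relative to the 75th percentile (horizontal axis), with dashed lines at 2-fold. Cxcl5 (2.11), Cxcl1 (1.99), Cxcl3 (1.77) and Cxcl2 (1.14) sit above the upper line, Ppbp (0.79) just under it and Pf4 (-0.07) in the main band.

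The start regions of Cxcl1, Cxcl2 and Cxcl3 share a run of letters that those of Ppbp and Pf4 lack. RefSeq promoters (GRCm38.p6, 250 bases before to 50 after the start) were used for these 5 genes. Cxcl5, also past 2-fold, had no promoter in the set searched, so its start region was not examined. The longest word common to Cxcl1, Cxcl2 and Cxcl3 before the start is GGGAATTTCCC, which has the form of an NF-kB site, NF-kB being the main transcription factor of the LPS response. It stands on the plus strand 71 to 61 bases before the start in Cxcl1, 97 to 87 in Cxcl2 and 73 to 63 in Cxcl3. The promoters are printed with that word in capitals, and Pf4, whose signal was level, is shown for contrast.
Cxcl1 (chr5:90890995-90891294, plus strand): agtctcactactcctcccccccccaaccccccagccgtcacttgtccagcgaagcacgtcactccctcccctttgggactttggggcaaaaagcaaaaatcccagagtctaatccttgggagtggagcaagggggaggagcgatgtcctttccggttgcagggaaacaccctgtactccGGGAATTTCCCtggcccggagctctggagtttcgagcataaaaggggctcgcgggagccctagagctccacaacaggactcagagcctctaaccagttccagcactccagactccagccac
Cxcl2 (chr5:90903649-90903948, plus strand): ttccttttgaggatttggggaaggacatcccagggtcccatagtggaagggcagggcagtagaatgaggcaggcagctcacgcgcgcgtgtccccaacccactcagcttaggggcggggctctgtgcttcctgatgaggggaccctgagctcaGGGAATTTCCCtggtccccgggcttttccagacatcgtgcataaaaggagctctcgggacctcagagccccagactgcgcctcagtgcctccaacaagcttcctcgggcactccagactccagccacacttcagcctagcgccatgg
Cxcl3 (chr5:90785851-90786150, plus strand): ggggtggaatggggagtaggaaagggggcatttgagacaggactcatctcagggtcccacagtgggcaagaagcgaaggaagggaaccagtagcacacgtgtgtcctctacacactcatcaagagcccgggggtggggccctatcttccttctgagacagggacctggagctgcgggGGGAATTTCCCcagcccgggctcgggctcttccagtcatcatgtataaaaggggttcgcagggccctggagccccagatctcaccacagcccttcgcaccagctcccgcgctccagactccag
Pf4 (chr5:90772185-90772484, plus strand): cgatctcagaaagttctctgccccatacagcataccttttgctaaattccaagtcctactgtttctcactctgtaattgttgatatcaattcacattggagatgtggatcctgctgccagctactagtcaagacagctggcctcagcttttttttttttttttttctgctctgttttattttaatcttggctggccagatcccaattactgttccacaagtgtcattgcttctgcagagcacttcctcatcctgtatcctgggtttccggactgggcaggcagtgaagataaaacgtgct

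GGGAATTTCCC, searched on both strands, occurs in 14 of 32851 promoters of that length (0.0426%), 3 of them those of Cxcl1, Cxcl2 and Cxcl3, from which the word was taken. Its inner letters GGAATTTCC, which overlap it, occur in 0.317% of promoters and in the same 3 members. A TATA-like ATAAAAG stands on the plus strand 34 to 28 bases before the start in Cxcl1, 57 to 51 in Cxcl2 and 29 to 23 in Cxcl3, against 5.42% of promoters on either strand. Ppbp holds the same letters on the minus strand, 86 to 80 bases before its start. On the plus strand it shares GTATAAAA with Cxcl3, from position -31 in both and ending at -24 in Ppbp. There Ppbp reads ATAAAAA where Cxcl3 reads ATAAAAG, so the search missed it by the last letter. TGCTGA, the half-site bound by Maf proteins, is present in 19.5% of promoters and in none of the 5. AP-1 letters TGANTCA (7.81% of promoters) were found in Ppbp and C/EBP letters TTGCNNAA (10.8%) in Pf4. The longest run shared by 2 of these promoters joins Cxcl1 and Cxcl2, 20 bases just after the start of transcription, whereas no pair that includes Ppbp or Pf4 shares more than 9.

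Of 11 other genes whose promoter holds the full word GGGAATTTCCC, 5 were measured and had a median of -0.13 on the log2 scale. None of the 5 was past 2-fold on the higher side, and 1 (20.0%), Lyzl4, was past it on the lower side. Of the 100 other genes whose promoter holds the inner letters GGAATTTCC, 45 were measured, and 19 of these lay above 0 and 26 below, with a median of -0.08 on the log2 scale. Dusp6, a MAP kinase phosphatase gene (1.52), Slc6a13 (1.49) and Fam107a (1.09) were at least 2-fold higher, a share of 6.67% beside 1.43% of all genes. The chemokine receptor gene Ccr3 (-2.18) and Lyzl4 (-1.32) were at least 2-fold lower, a share of 4.44% beside 1.74%. Genes known as NF-kB targets lay on both sides of 0, with Ier3 at 0.68, Acod1 at -0.01, Nfkbia, the gene of the inhibitor IkB-alpha, at -0.24, Tnfaip3 at -0.37, Icam1 and Cxcl10 at -0.60 and Ifnb1 at -0.95. The letters were searched with the array results known, and a match describes the sequence only.

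The array probes themselves are 60 bases long and distinct from one another. The longest run that any member's probe shares with another member's is 7 bases, and with a probe of any other gene 14 bases. The Cxcl2 and Cxcl5 probes include ATTTA, the core of the AU-rich elements that shorten the life of cytokine mRNAs, as do 7.71% of all probes. Only the stretch around it is shown, in capitals, on mm9 coordinates.
Cxcl2 (chr5:91334554-91334578, plus strand): ttttaaacctATTTAttcattagtt
Cxcl5 (chr5:91190490-91190512, plus strand): gctgagatATTTAgatgtctgta

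No other measured gene around the cluster was past 2-fold. Within 1 Mb on either side the array names 16 further genes, of which 4 were measured on both arrays. Their median log2 difference was 0.01, with Ankrd17 at -0.46, Cox18 at 0.15 and the fetal serum protein gene Afp at -0.02. Mthfd2l, a mitochondrial folate enzyme gene beyond Cxcl2, was at 0.05. Its probe lies 260 kb from the Cxcl5 probe, against 144 kb for the Cxcl2 probe. The probe for Cxcl15, a lung chemokine gene lying between Cxcl3 and Cxcl1, was not well above background on either array (signals of 4.45 and 4.83). Epgn, an EGF-family ligand gene, was well above background in c-Maf-/- alone (32.1 against 5.20, at least 1.41-fold higher), and its relatives Ereg, Areg and Btc on neither array. Ppbp and Pf4, the members within 2-fold, lie between Cxcl5 and Cxcl3, whose probes are 26.2 kb apart.

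**Figure D3:**
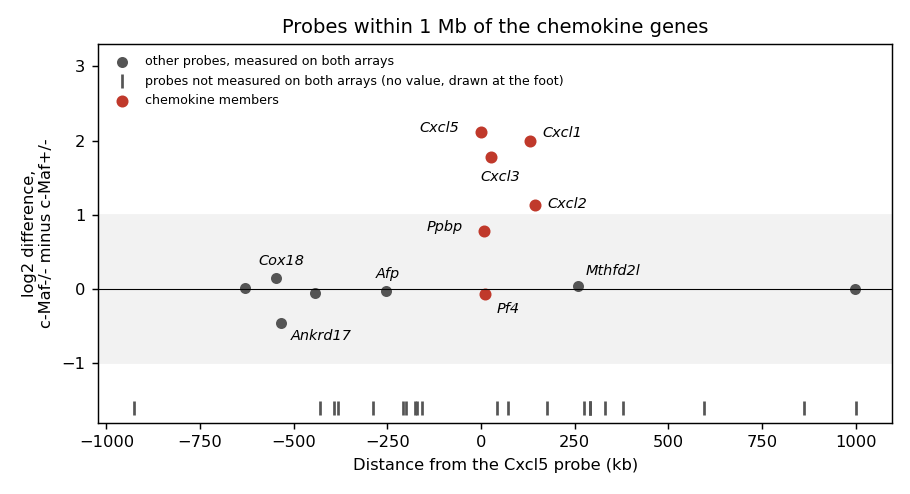
Log2 difference (vertical axis, c-Maf-/- minus c-Maf+/-) of the probes within 1 Mb of the members, by distance from the Cxcl5 probe in kb (horizontal axis). Red points are the 6 members, grey points other probes measured on both arrays, ticks probes without a value, and the shaded band lies within 2-fold. Only Cxcl5, Cxcl3, Cxcl1 and Cxcl2 stand above the band.

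The 3 receptor genes examined were not flagged well above background on either array, and other receptors of these ligands were not examined. Cxcr2, the neutrophil receptor for ELR chemokines, read 28.1 on the heterozygous array and 24.4 on the knockout array. Cxcr1 (4.45 and 6.61) and the decoy receptor gene Ackr1 (6.20 and 9.88) had lower readings than the lowest well-above-background signals, 22.3 and 24.2, and Cxcr2 slightly higher ones.

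Other CXC chemokine genes did not share the direction. Of 9 listed, 5 were measured and all 5 had values below 0 in the main setting. Their median was -0.23 beside -0.02 for all genes, and -0.09 beside 0.11 with spike-in scaling. The interferon-induced T cell attractant Cxcl9 (8767 to 3379, log2 difference -1.40 over 2 probes) was the only one past 2-fold. Cxcl10, of the same group, was at -0.60, although its 2 probes read -1.07 and -0.14. Cxcl14 (-0.23), Cxcl16 (-0.20) and Cxcl11 (-0.07, with its 2 probes at -0.19 and 0.04) followed. Cxcl12, Cxcl13, Cxcl15 and Cxcl17 were not well above background on either array.

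Upstream cytokines known to induce these chemokines were higher by less than 2-fold. Il1b went from a signal of 57162 to 93021 (log2 difference 0.68) and Il1a from 1617 to 2475 (0.59), and Tnf differed by 0.31. Il10, whose product is known to restrain the LPS response including these chemokines, was the only one of the 12 measured genes in this list past 2-fold (5521 to 1245, -2.17). On the sensing side the LPS co-receptor gene Cd14 was at 0.46, Tlr4 at -0.61, its partner Ly96 at -0.51 and the adaptor gene Myd88 at -0.37. Il17a and the interleukin-1 receptor gene Il1r1 were not well above background. The median of the list was -0.20, but turned to 0.11 when dim probes were not filtered out and to 0.13 with the looser flag for probes positive and significant.

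Of 13 genes of transcription factors known at such promoters, 10 were below 0. Their median was -0.18 beside -0.02 for all genes, and -0.045 beside 0.11 with spike-in scaling. Nfkbiz, which encodes the NF-kB cofactor IkB-zeta, was the only one past 2-fold (1941 to 863, log2 difference -1.20). Rel, an NF-kB subunit gene, was at -0.97 and Nfkb1 at -0.18, while Rela (-0.06) and Cebpb (0.09) were closer to the median of all genes. Hif1a (0.40) was the highest of the list.

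Genes that govern decay of chemokine mRNA went both ways, with a median of 0.09 over 9 measured. Zfp36, which encodes tristetraprolin, a protein that binds AU-rich elements and speeds decay, was at -0.51, and its relatives Zfp36l2 and Zfp36l1 were at 0.75 and 0.37. Zc3h12a, the gene of the endonuclease Regnase-1, was at 0.03. Arid5a, which encodes an RNA-binding protein that protects some cytokine mRNAs, went from 23990 to 11865 (-1.04), but lay within 2-fold after quantile normalization and after spike-in scaling (-0.91).

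Proteases that trim or activate these chemokines, and the granule proteoglycan gene Srgn, whose product stores Pf4 in platelets, had a median of -0.06 over 7 measured genes (0.08 with spike-in scaling). The proteinase 3 gene Prtn3 was lower (118 to 48.4, log2 difference -1.31), but within 2-fold with normexp correction (-0.72). The cathepsin G gene Ctsg was at -0.86, Mmp12 at -0.47 and Mmp8 at 0.46, and Srgn (0.03) barely differed.

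Genes for other neutrophil attractants, their receptors and growth factors had a median of 0.09 over 11 measured genes, 8 of them above 0. Alox5, the leukotriene-forming enzyme gene, was the only one past 2-fold (567 to 1217, log2 difference 1.08, but 0.98 with normexp). The formyl peptide receptor genes Fpr1 (0.80) and Fpr2 (0.47) came next, with the leukotriene B4 receptor gene Ltb4r1 at 0.36 and the granulocyte growth factor gene Csf3 at 0.35. Csf2 was well above background in c-Maf-/- alone, with signals of 17.5 and 42.4, at least 1.86-fold higher.

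**Figure D4:**
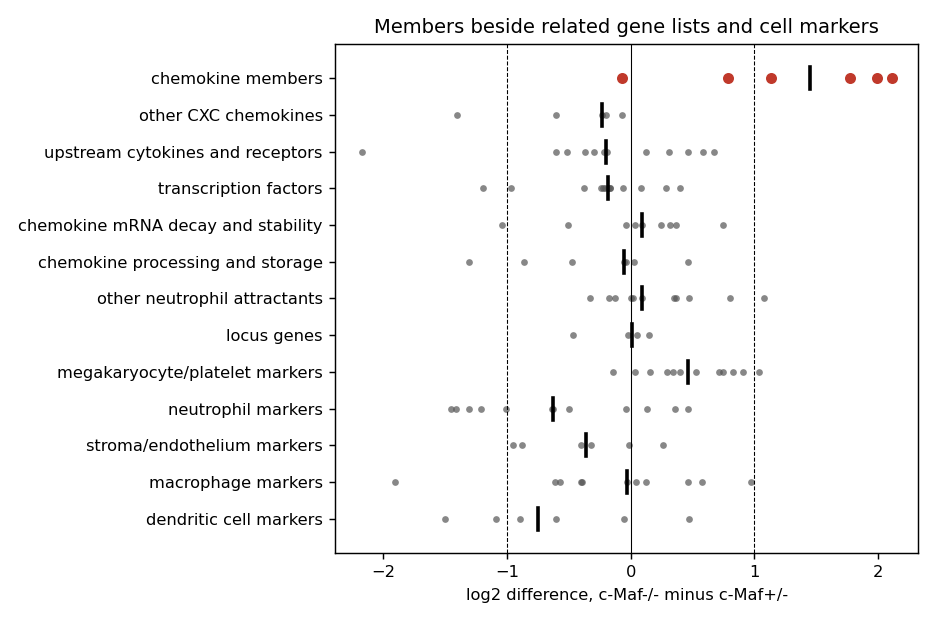
Log2 difference (horizontal axis, c-Maf-/- minus c-Maf+/-) of the 6 members (red) and of each measured gene in related lists and cell type markers (grey), with black bars at medians and dashed lines at 2-fold. The member median is 1.46, and the list medians lie between -0.75 for dendritic cell markers and 0.47 for megakaryocyte and platelet markers.

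Markers of other cells that make these chemokines also differed between the cultures. In bulk RNA, fewer cells of a type and less RNA per cell cannot be told apart. Neutrophil markers had 9 of 12 measured genes below 0 and a median of -0.63, with Ngp (-1.45), Ltf (-1.41), Prtn3 (-1.31), Mpo (-1.21) and S100a9 (-1.01) at least 2-fold lower. With normexp correction Mpo (-0.82) and Prtn3 (-0.72) lay within 2-fold, as did S100a9 with spike-in scaling (-0.87). The markers above 0 were Mmp8 (0.46), Lcn2 (0.36) and Csf3r (0.13). Retnlg and Cxcr2 were not well above background, and the summed signal of the list was 197589 in c-Maf+/- and 178113 in c-Maf-/-. Lcn2 (71434 to 93372) and S100a9 (68498 to 34671) were the largest parts of these sums and went opposite ways. Stromal and endothelial markers, relevant to Cxcl5, had 5 of 6 measured genes below 0, with Dcn at -0.95 and Col1a1 at -0.88. Pecam1 (-0.01) was near the median of all genes, and Pdgfrb (0.27) was above 0. Cdh5 and Col3a1 were well above background in c-Maf+/- alone, at least 2.32-fold and 1.35-fold lower in c-Maf-/-. Their median was -0.36 (-0.17 with the brightest probe per gene). Signals summed to 3826 on the heterozygous array and 2917 on the knockout array. Kdr made up most of both sums (2856 and 2202), and its 2 probes went opposite ways, at -0.95 and 0.15. Pdgfra, Lum and Cxcl12 were not well above background. The part of neutrophils and of stromal and endothelial cells in the chemokine differences was not tested.

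Megakaryocyte and platelet markers, relevant to Ppbp and Pf4, went the other way. Of 12 measured, 11 were above 0, with a median of 0.47 (0.29 with normexp). Among the highest were Gp6 (61.3 to 128, log2 difference 1.04, but 0.54 with normexp), Gp9 (0.91) and Gp1ba (0.75). Their summed signal was 1420 in c-Maf+/- and 1801 in c-Maf-/-, and Tubb1 and Gp5 were not well above background on either array. The Ppbp difference of 0.79 lay within the range of these markers and Pf4 at -0.07 near its lower end (-0.15, Clec1b). The part of these cells in the Ppbp difference was not tested.

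Over 6 measured markers of dendritic cells the median was -0.75 (-0.46 with normexp and -0.50 without background subtraction). Fscn1 (-1.50) and Itgax (-1.09, but -0.77 at its closest to 0 among the settings) were past 2-fold. Lymphocyte markers (median -0.07 over 5 measured, 0.07 with spike-in scaling) and mast cell and basophil markers (-0.06 over 3, 0.07 with spike-in scaling) lay near the median of all genes, although Lck was at -0.94 and Cpa3, well above background in c-Maf+/- alone, was at least 3.40-fold lower in c-Maf-/-. Macrophage markers had a median of -0.03 (0.10 with spike-in scaling), with the efferocytosis receptor gene Mertk (-1.91) past 2-fold. The part of these cells in the chemokine differences was not tested.

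The sizes of the differences moved with the processing, and their side of 2-fold did not. Under 11 alternative settings Cxcl1 stayed between 1.74 and 2.13, Cxcl3 between 1.70 and 1.91, Cxcl2 between 1.10 and 1.27 and Cxcl5 between 1.29 and 2.25 on the log2 scale. The 4 genes were past 2-fold in each of them. In 5 of the settings, which change only the filter or the handling of repeated spots and probes, the members could not move, because each had 1 unflagged spot well above background.

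**Figure D5:**
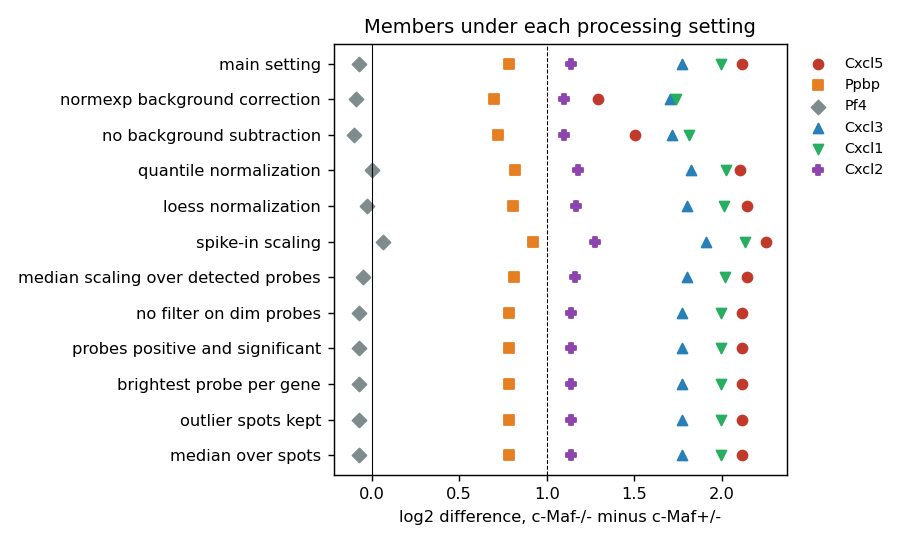
Log2 difference (horizontal axis, c-Maf-/- minus c-Maf+/-) of each member under the main setting and 11 alternatives (rows), with a dashed line at 2-fold. Cxcl5 is the member that shifts most, from 2.11 to 1.29 with normexp correction, and Ppbp and Pf4 stay left of the dashed line in every row.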

How the data were processed

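Each sample was 1 one-colour array, per the labels' protocols hybridised with Cy3-labelled product of 50 ng total RNA. The authors deposited spot intensities from Agilent Feature Extraction 10.7.3.1 (protocol GE1_107_Sep09, design 028005), corrected by spatial and multiplicative detrending within the array and not normalized between arrays, per the file headers. Other deposited columns used, per the file headers, were mean, background, pixel SD and error intensities, pixel counts and the 0 or 1 flags for detection, outliers and saturation. Both arrays were on 1 slide.

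From log2 of the processed signal, each array's 75th percentile over 59305 non-control spots was subtracted (291 and 296). Spots flagged as outliers were dropped, spots of a probe averaged, and a gene took the mean of its probes flagged well above background in both cultures. A gene detected on 1 array only has a bound against the lowest well-above-background signal (22.3 and 24.2) or its own dim signal, whichever is higher. Names came from the files, updated through RefSeq (31816 of 55681 probes matched). Gene counts use 2-fold, and no test was possible with 1 array per genotype. The word searched in promoters was the longest that Cxcl1, Cxcl2 and Cxcl3 share in the 250 bases before the start. Members, lists, other letters searched and thresholds were chosen with earlier results of these data known. Named genes are all members, Maf, the list genes past 2-fold and up to 4 of each list farthest from 0, and any other gene named, Xist and the Y-linked genes included, was picked with its value known. Some genes that this rule selects are not reported here. The number of arrays limits every comparison, and signal near background limits dim genes. The 2-fold count was tested on simulated data. Tools were Python 3.11.15, R 4.3.3 and limma 3.58.1.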

Additional observations from a re-analysis of the deposited data

How the results depend on the processing

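No paired analysis was possible because each genotype has 1 array. Of the members, Cxcl5 and Cxcl1 moved by more than their reading error. Cxcl5 went to 1.29 under normexp and 1.50 when no background was subtracted, and Cxcl1 to 1.74 with normexp. The normexp setting added 50 intensity units to every spot, and the other left the background in. Either shrinks the fold of a dim spot more than that of a bright one. How much of each shift this made was not tested. The 4 members stayed at least 2-fold higher and 0 members were at least 2-fold lower in all 11 alternatives. Counts over all genes moved more. Genes at least 2-fold higher numbered 68 with normexp, 82 without background subtraction, 885 without the filter on dim probes and 489 with probes positive and significant, against 177. Genes at least 2-fold lower numbered 109, 124, 871 and 580 in the same settings and 142 with spike-in scaling, against 216. Spike-in scaling raised every difference by 0.14 and the share of calls on the higher side from 45.0% to 64.9%, and normexp lowered that share to 38.4%. With spike-in scaling the medians of chemokine processing (0.08), macrophage (0.10), lymphocyte (0.07) and mast cell (0.07) genes turned from below to above 0, and that of upstream cytokines turned to 0.11 without the filter on dim probes and 0.13 with probes positive and significant. The lymphocyte and mast cell medians also turned without the filter on dim probes (0.15 and 0.18) and with probes positive and significant (0.06 and 0.02), and the macrophage median turned to 0.0055 with loess normalization and 0.01 with the brightest probe per gene. The 1 spot per gene limits precision to about 0.20 to 0.26 on the log2 scale for reading the array, and nothing here measures the spread between cultures or mice.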
